A study of Mus musculus with 11 samples.

Results

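RNA levels in mouse embryonic fibroblasts (MEFs) depleted of the long non-coding RNA Pint (gene symbol Lncpint) were set against those in the same kind of cells given a control antisense oligonucleotide (ASO). The comparison holds 3 arrays labelled PINT inhibition and 2 labelled PINT control inhibition, out of 11 arrays in the series. A probe set entered when its log2 value was over 6 in at least 2 arrays of either ASO group. This took in 25495 of the 34760 probe sets in the table, of which 24388 passed in both ASO groups, 913 in the Pint ASO group only and 194 in the control ASO group only. Among those that passed in 1 group only, 47 of the 913 were called higher with Pint ASO and 39 of the 194 were called lower. Probe sets that passed through 1 group alone favour that direction by construction, and nothing is read from these counts.

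All the cells were p53 LSL/LSL MEFs, in which a removable stop cassette keeps the gene of the tumour suppressor p53 silent until Cre recombinase cuts it out. In every group an adenovirus carrying Cre (multiplicity of infection 5, 24 h) restored p53. Transfection followed, and 24 h after it the cells received 150 nM of the DNA-damaging drug doxorubicin for 12 h. There was therefore no group without p53 restoration, without virus or without doxorubicin. The Pint ASO group received a pool of ASOs against Pint and the control ASO group received 1 non-targeting ASO, so effects of single oligonucleotides cannot be told apart. A separate arm with its own controls, of 3 control siRNA and 3 p53 siRNA arrays, serves as a yardstick. The methods speak in general of biologic replicates, but the labels do not say whether these arrays came from separate cultures. If they did not, p-values measure only the spread between these samples, which may be technical.

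Pint is a nuclear lincRNA that p53 induces, and the study asked which genes depend on it while p53 is active. The ASOs used are gapmers, short modified DNA strands that pair with a nuclear or cytoplasmic RNA and recruit RNase H to cut it. Long non-coding RNAs of this kind have been linked to the Polycomb repressive complexes, which silence genes by marking their histones. Fibroblasts make most of the collagen and other matrix proteins of connective tissue, and on stress or growth factor stimulation they switch on a set of early response genes within minutes to hours.

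The targeted RNA was lower in each Pint ASO array. Lncpint (Entrez gene 232685) stood at log2 10.41 and 10.23 in the control ASO arrays and at 8.60, 8.48 and 8.55 in the Pint ASO arrays. The groups did not overlap, and the change of -1.78 (SE 0.12, limma adjusted p = 2.94e-05) left 29.2% of the control level. The exact permutation test over these 5 arrays, two-sided, gave p = 0.1, the smallest that 10 arrangements allow. Lncpint averaged 9.61 in control siRNA, so the control ASO arrays were above those by 0.71 (adjusted p = 0.0137), and the Pint ASO arrays lay below all control arrays of both arms. Among the neighbours on chromosome 6, Copg2, a subunit of the COPI vesicle coat, fell by 0.43 (SE 0.06, adjusted p = 0.000821) and Podxl, a sialomucin of the cell surface, rose by 0.39 (SE 0.08, adjusted p = 0.00977), a call lost without control ASO replicate 2. Mkln1, Klf14, Cep41, Cpa1, Cpa4, Mest and Mir29a were not called. Of these, Mir29a had a change of 0.61 with adjusted p = 0.141, and the other neighbours not called lay between -0.11 and 0.07.

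Changes were broad and mostly small. Of the 25495 probe sets, 2211 (8.67%) were called higher and 2763 (10.8%) lower at a limma adjusted p under 0.05, together 19.5%. A B statistic over 3, used here with no fold cut-off although the methods combine the 2, was reached by 812 (3.18%), 326 of them higher and 486 lower. Both counts leaned on the control arrays, of which there were only 2. There were 1377 higher and 2022 lower without control ASO replicate 2. Without control ASO replicate 1 there were 1719 higher and 1664 lower, so that the excess of lower calls turned into a small excess of higher calls. Taken as genes, with 1 probe set for each, 1818 of 15990 (11.4%) were called higher and 2241 (14.0%) lower, 25.4% in either direction. The counts of gene lists below are to be read beside these shares of all genes. B over 3 was reached by 732 genes (4.58%). The arrays of the 2 groups did not overlap for any called gene, which was the case for 46.8% of all genes. Large changes were uncommon, with 357 genes called higher and 529 called lower by at least 0.5, and only 23 and 63 by at least 1. The median absolute change was 0.34 among genes called higher and 0.35 among those called lower, and the median over all genes was 0.01. Of 805 genes with several probe sets, 2 (Tctn1 and Dlc1, named after their values were seen) had probe sets called in opposite directions.

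**Figure D1:**
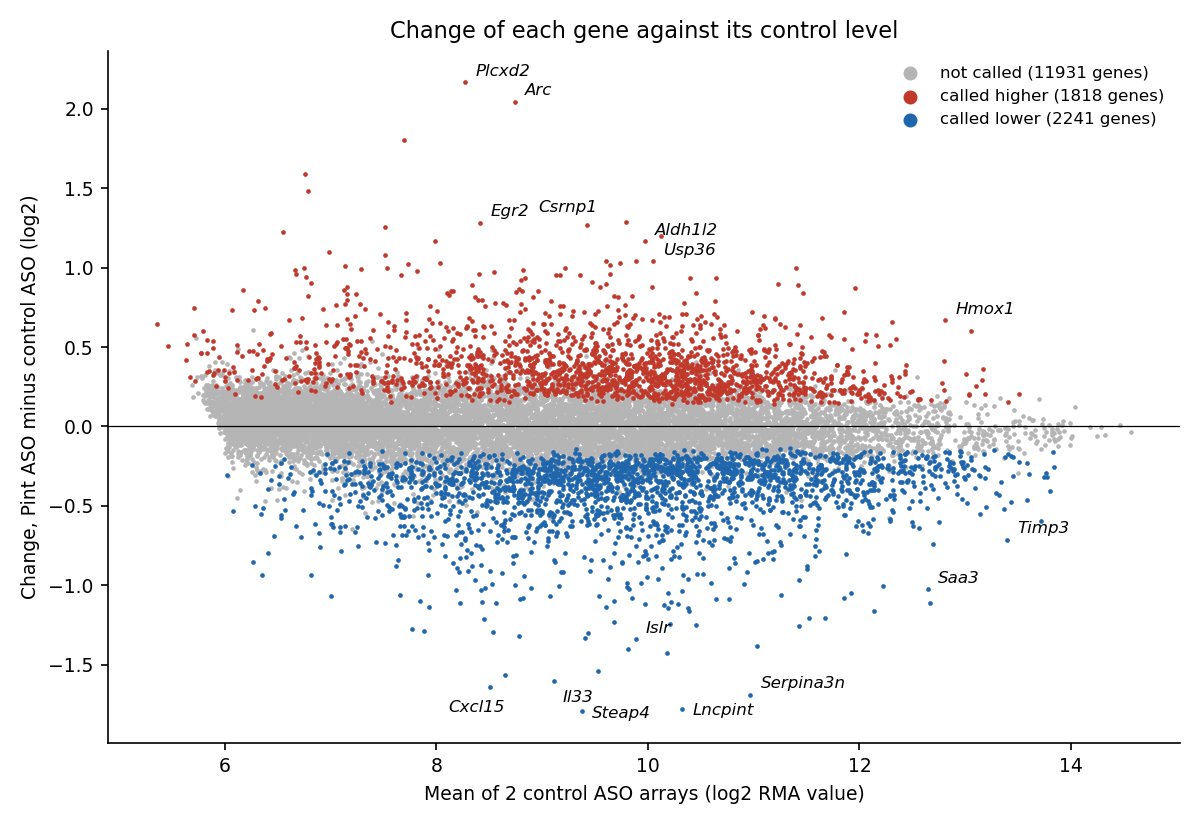
Change of each of 15990 genes (vertical axis, log2, Pint ASO mean minus control ASO mean) against its mean in the 2 control ASO arrays (horizontal axis, log2 RMA value). Red points are the 1818 genes called higher and blue points the 2241 called lower at an adjusted p under 0.05, grey points were not called. Plcxd2 (2.17) and Arc (2.04) stand highest, and Steap4 (-1.79) and Lncpint (-1.78) lowest.

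The highest changes were those of Plcxd2, a phospholipase-like protein, and Arc, an early response gene best known from neurons. Plcxd2 stood at 8.31 and 8.23 in control ASO and at 10.36, 10.55 and 10.40 in Pint ASO, a 4.49-fold rise (2.17, SE 0.07, adjusted p = 1.39e-06). Arc went from 8.77 and 8.71 to 10.64, 10.90 and 10.81 (2.04, SE 0.09, adjusted p = 5.24e-06). In both, every Pint ASO array lay more than 1 unit above every control array of either arm, although control ASO itself stood 0.66 below control siRNA for Plcxd2 and 0.47 above it for Arc. Next came Rnf225, which encodes a RING finger protein (1.80), Pld4, of the phospholipase D family (1.59), and Ephx3, an epoxide hydrolase (1.48). The linker histone gene H1f1 rose by 1.27, the Notch pathway repressor gene Hey2 by 1.26 and the exchange factor gene Rasgrf2 by 1.17. Usp36, a deubiquitinase of the nucleolus, rose by 1.04, as did Ankrd1, a target of the co-activator YAP, and Chka, a choline kinase, rose by 1.03.

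Among the genes that fell furthest were secreted proteins and enzymes of detoxification. Steap4, a metalloreductase, fell from 9.40 and 9.35 to 7.66, 7.75 and 7.34 (-1.79, SE 0.12, adjusted p = 2.57e-05), which left 28.9% of the control level. Serpina3n, a secreted protease inhibitor of the acute phase, fell from 10.90 and 11.03 to 9.33, 9.43 and 9.08 (-1.69, SE 0.10, adjusted p = 1.38e-05). Prelp, a small leucine-rich proteoglycan of basement membranes, fell from 9.54 and 9.51 to 8.02, 7.94 and 8.01 (-1.54, SE 0.05, adjusted p = 1.39e-06). None of these 3 overlapped any control array of either arm. The chemokine gene Cxcl15 fell by 1.64, the alarmin gene Il33 by 1.60 and the cytochrome P450 gene Cyp2f2 by 1.57. Igsf10, Lrrc17, Islr, Pamr1 and Dpt, which encode secreted proteins of connective tissue, fell by 1.42, 1.40, 1.34, 1.32 and 1.29. The caspase gene Casp12 fell by 1.30.

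**Figure D2:**
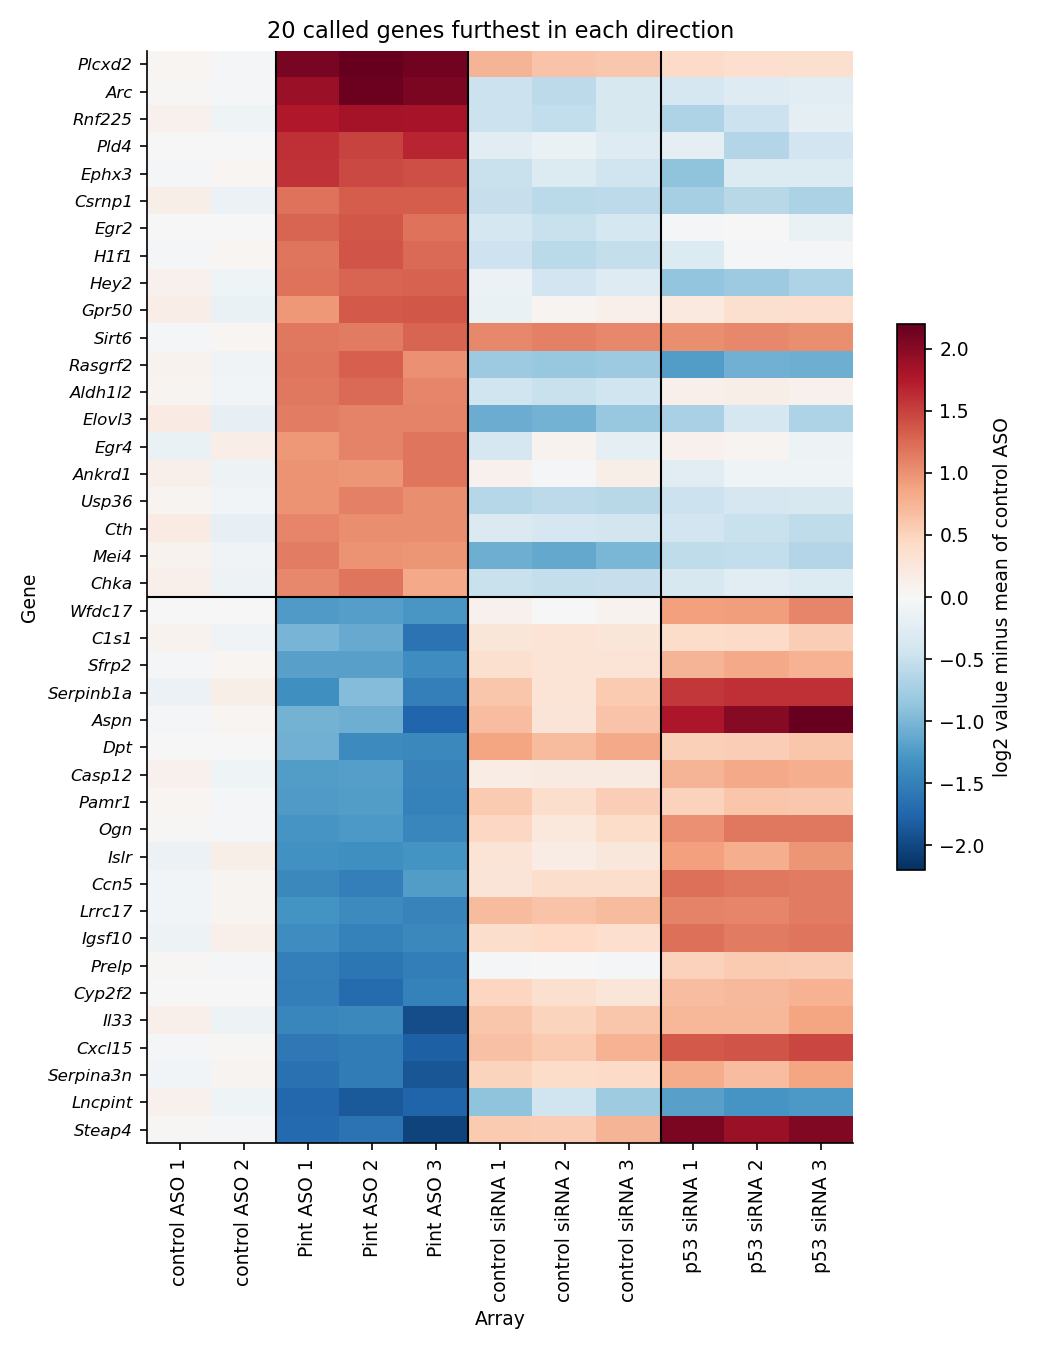
Log2 value minus the control ASO mean (colour, red above and blue below) for the 20 called genes furthest in each direction (rows) in all 11 arrays (columns). The Pint ASO columns are red in the upper and blue in the lower rows, while Sirt6 in control siRNA is as red as in Pint ASO, and Steap4 and Aspn are higher in p53 siRNA.

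Early response transcription factors are switched on by growth factor and stress signals without new protein synthesis, and the feedback inhibitors that follow them dampen the MAP kinase cascade. Promoters of 2 of these genes, Egr4 and Dusp5, show the kind of element through which such signals are known to act, and are given for that reason. They are the 250 bases before the RefSeq start (GRCm38.p6), 5′ to 3′ on the strand of the gene. Capitals mark the core of the cAMP response element, TGACGT or its reverse complement, and in Dusp5 also 2 adjoining CArG boxes, the element of serum response factor.

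Egr4, chr6:85513590-85513839, minus strand: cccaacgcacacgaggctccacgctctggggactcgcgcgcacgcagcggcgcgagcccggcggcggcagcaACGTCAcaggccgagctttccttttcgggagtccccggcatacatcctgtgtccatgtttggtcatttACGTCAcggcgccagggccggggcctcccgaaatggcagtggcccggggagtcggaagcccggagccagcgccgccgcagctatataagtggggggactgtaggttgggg
Dusp5, chr19:53528895-53529144, plus strand: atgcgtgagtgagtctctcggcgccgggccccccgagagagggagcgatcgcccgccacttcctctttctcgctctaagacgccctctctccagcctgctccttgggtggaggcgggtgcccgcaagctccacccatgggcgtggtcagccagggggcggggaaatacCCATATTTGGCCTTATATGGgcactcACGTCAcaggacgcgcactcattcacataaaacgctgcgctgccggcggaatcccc

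Over all 32851 windows of this length in the table, 6.47% held the TGACGT core on either strand and 1.47% a CArG box. Among the tested genes matched to a window the shares were 10.3% and 1.41% (12581 of 15990 genes). They were 14.4% and 1.73% among genes called higher, and 9.01% and 0.976% among genes called lower. Of the 24 early response genes matched, called or not, 8 held the TGACGT core and 3 a CArG box. Among the 16 called higher these were 5 and 3, so the share with the core was no higher among called members than in the whole list. Of the 16 feedback inhibitors matched 5 held the core, 4 of them among the 10 called higher. The AP-1 site TGANTCA was held by 4.72% of genes called higher and 6.95% of those called lower. These are matches of letters, not binding.

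Of 31 early response transcription factors, 22 were called higher and 0 lower, with a median change of 0.39 against 0.01 over all genes. Egr1, the best known of the zinc finger factors of this class, stood at 11.42 and 11.38 in control ASO and at 12.42, 12.40 and 12.38 in Pint ASO (to 199.8% of the control level, SE of the log2 change 0.04, adjusted p = 5.24e-06). Egr4, whose promoter is printed above, stood at 7.36 and 7.66 against 8.47, 8.61 and 8.69 (1.08, SE 0.14, adjusted p = 0.000676). In both, no array of Pint ASO came near the control arrays. Egr2 rose by 1.28 and Csrnp1, a nuclear protein induced with this class, by 1.29. Of the 31 genes 1 had a change below 0, Jund (-0.15), which was not called. Control ASO itself was called above control siRNA for 9 of the 31, against 2.7% of all genes, and below it for 0, against 2.16%.

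Feedback inhibitors moved the same way. Of 20 MAPK phosphatases and feedback inhibitors, 13 were called higher and 0 lower, with a median of 0.27. The 13 became 8 without control ASO replicate 2. Dusp5, a nuclear phosphatase of ERK, stood at 10.55 and 10.26 in control ASO and at 11.29, 11.35 and 11.37 in Pint ASO (0.94, SE 0.10, adjusted p = 0.000322). The control arrays of Dusp5 were further apart than its Pint ASO arrays, yet the groups did not overlap. The Sprouty genes Spry2 and Spry4, which block signalling from receptor tyrosine kinases, rose by 0.73 and 0.71. Phlda1 rose by 0.69, as did Dusp8, a phosphatase of the stress kinases. The study drew a MAPK theme from these samples, so this count is not independent evidence of its direction.

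Related groups rose in part. Of 16 Kruppel-like factors 7 were called higher and 0 lower, led by Klf6 (0.69), a factor induced early in wounds, and Klf5 (0.68), which drives growth in many tissues. Of 20 subunits and feedback genes of NF-kappaB, 9 were called higher and 5 lower. Those that rose include Tnfaip3 (0.76), which encodes the inhibitor A20, and Nfkb2 (0.50). Those that fell include the adhesion genes Icam1 (-0.44) and Vcam1 (-0.37), and Sod2 (-0.36). The 5 became 3 without control ASO replicate 1. Among 23 Notch genes 7 were called higher and 2 lower. Hey2, a target, and Dtx4, a regulator, rose by 1.26 and 0.57, while the receptor gene Notch3 fell by 0.41. The Notch count of 7 came down to 2 without control ASO replicate 1, to 3 without control ASO replicate 2 or Pint ASO replicate 3, and to 4 without Pint ASO replicate 1, control siRNA replicate 3 or p53 siRNA replicate 1.

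ATF4 is the transcription factor of the integrated stress response, made when cells lack amino acids or meet other stresses, and its targets supply amino acids and charge tRNAs. Of 20 genes of this response 16 were called higher and 0 lower, with a median of 0.35. The promoters of Chac1, a glutathione-degrading enzyme, and Slc7a11, the cystine transporter, are shown because they carry the composite element of ATF4 and C/EBP factors, TGATGNAA on either strand, in capitals.

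Chac1, chr2:119350992-119351241, plus strand: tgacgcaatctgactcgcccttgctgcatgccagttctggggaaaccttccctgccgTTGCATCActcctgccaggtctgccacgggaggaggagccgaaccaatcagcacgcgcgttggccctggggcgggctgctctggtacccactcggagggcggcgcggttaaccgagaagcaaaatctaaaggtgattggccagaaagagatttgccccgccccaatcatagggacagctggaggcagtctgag
Slc7a11, chr3:50443614-50443863, minus strand: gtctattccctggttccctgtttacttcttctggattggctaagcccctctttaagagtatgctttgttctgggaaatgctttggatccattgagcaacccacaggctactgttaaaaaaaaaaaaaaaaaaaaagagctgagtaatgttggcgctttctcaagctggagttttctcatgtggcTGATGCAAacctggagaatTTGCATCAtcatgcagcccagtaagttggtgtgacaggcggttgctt

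The composite was held by 3.45% of all windows, 2.53% of tested genes, 3.19% of genes called higher and 2.3% of genes called lower. Of the 18 ATF4 response genes matched 5 held it, 4 of them among the 15 called higher. Chac1 stood at 11.47 and 11.46 in control ASO and at 12.36, 12.33 and 12.25 in Pint ASO (0.84, SE 0.05, adjusted p = 1.89e-05). Slc7a11 stood at 11.83 and 11.62 against 12.32, 12.29 and 12.25 (0.56, SE 0.07, adjusted p = 0.000505). For these 2 genes the control ASO arrays were themselves above control siRNA, by 1.01 for Chac1 and 0.87 for Slc7a11, so each step from control siRNA to control ASO was larger than that from control ASO to Pint ASO. Ppp1r15a, which restores translation after the stress, rose by 0.88, the pseudokinase gene Trib3 by 0.73 and Cebpg, a partner of ATF4, by 0.70. Fgf21, a hormone gene of the same response, had a change of -0.07 and was not called. Control ASO was called above control siRNA for 10 of the 20, against 2.7% of all genes. The list was drawn up with the study's own tables known, so its count is not independent evidence.

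Enzymes and transporters of amino acids moved with it. In serine, one-carbon and amino acid synthesis 14 of 21 genes were called higher and 1 lower, with a median of 0.33. Aldh1l2, the mitochondrial enzyme that releases one-carbon units from folate, stood at 10.03 and 9.91 in control ASO and at 11.14, 11.21 and 11.05 in Pint ASO (1.16, SE 0.06, adjusted p = 1.03e-05). Cth, which makes cysteine, rose by 1.04, and the mitochondrial folate enzyme genes Mthfd2 and Shmt2 rose by 0.84 and 0.65. The member that fell was Aldh1l1 (-0.57), the cytosolic counterpart of Aldh1l2. The paralogs thus changed in opposite directions.

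Of 22 amino acid transporters 13 were called higher and 5 lower. The cationic and neutral transporter genes Slc7a1 (0.93), Slc7a3 (0.84) and Slc7a5 (0.66) rose, and Slc7a2 (-0.73), a second cationic transporter, Slc43a2 (-0.63), Slc1a3 (-0.41), Slc38a4 (-0.40) and Slc6a6 (-0.18) fell. For Slc7a3 and Slc7a5 control ASO was above control siRNA by 0.93 and 0.82. Of 18 cytosolic aminoacyl-tRNA synthetases 13 were called higher and 0 lower, with a median of 0.28. This count was 8 without control ASO replicate 2. Cars rose by 0.69, Tars by 0.56 and Vars by 0.41, and Qars was not called (-0.12).

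Ribosome biogenesis genes build and process ribosomal RNA in the nucleolus. Of 29 such genes 21 were called higher and 0 lower, with a median of 0.40. Rrp12, which exports ribosomal subunits, rose by 0.77 (SE 0.08, adjusted p = 0.000184), Noc3l by 0.64 and Nop2, a methyltransferase of ribosomal RNA, by 0.62 (SE 0.04, adjusted p = 4e-05). The proteins of the cytosolic ribosome itself did not follow, with 0 of 54 called higher, against 11.4% of all genes. Of the 54, 8 were called lower (14.8%, median -0.09), beside 14.0% of all genes. The list reads high (medians of 12.07 and 12.08 in control ASO), and 25.6% of the fifth of genes highest in control siRNA were called lower. That count of 8 was 1 without control ASO replicate 2, 2 without Pint ASO replicate 1, and 4 or 5 without Pint ASO replicate 2, control ASO replicate 1, any control siRNA replicate or p53 siRNA replicate 2. Of 55 small nucleolar and Cajal body RNAs listed, 52 were tested, and 2 were called higher and 9 lower. These are 3.85% and 17.3%, beside 11.4% and 14.0% of all genes. The lower count was 5 without Pint ASO replicate 1 or p53 siRNA replicate 3. The higher count was 1 without any 1 Pint ASO array, any 1 control siRNA array, or p53 siRNA replicate 2 or 3.

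Unfolded proteins in the endoplasmic reticulum feed the same stress response through a different sensor, and that group was mixed. Of 26 chaperones and regulators 3 were called higher and 7 lower, 11.5% and 26.9%, beside 11.4% and 14.0% of all genes. The list reads high, with medians of 11.28 and 11.20 in control ASO. In the fifth of genes highest in control siRNA 12.9% were called higher and 25.6% lower, so the shares of the list lay near those. Herpud1 (0.56), Ern1 (0.38) and Atf6 (0.30), which sense or clear unfolded proteins, rose, and the chaperone Sdf2l1 (-0.41), the kinase gene Eif2ak3 (-0.34), Pdia6 (-0.32) and P4hb (-0.27) fell. The lower count was 3 without control ASO replicate 1. Among 16 heat shock proteins 2 were called higher (12.5%) and 4 lower (25.0%), with Hspa9 at 0.33 and Hspa1a at -0.36. The 4 lower were 2 without Pint ASO replicate 1 or 2 or without either control ASO array, and the 2 higher were 1 without Pint ASO replicate 1 or control ASO replicate 2.

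**Figure D3:**
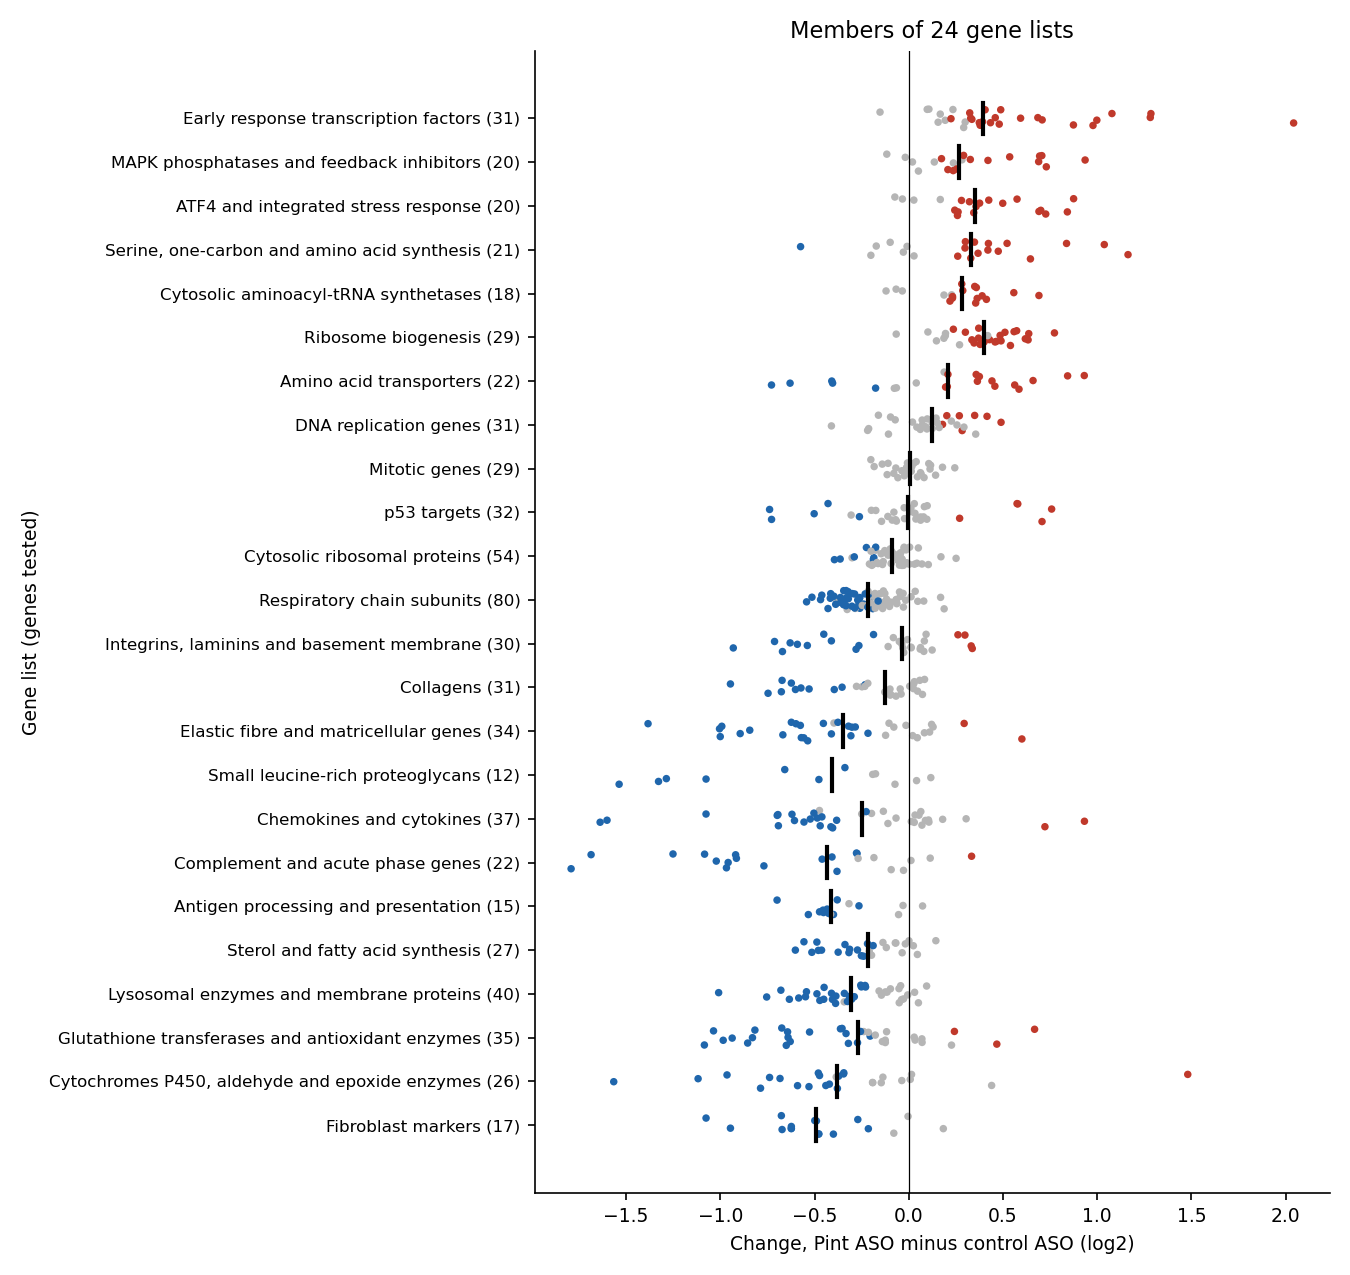
Change of every tested member (points, log2, Pint ASO minus control ASO) of 24 gene lists (rows, genes tested in brackets), with red for called higher, blue for called lower, grey for not called and a black bar at the list median. Medians lie at 0.39 for early response factors and 0.40 for ribosome biogenesis, and at -0.43 for complement and -0.49 for fibroblast markers. Points are jittered vertically.

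Genes of the extracellular matrix, the protein scaffold that fibroblasts lay down, were called lower more often than higher, and many were not called. Of 31 collagens 11 were called lower and 0 higher, with a median of -0.13. Col3a1, the fibrillar collagen of soft tissue, stood at 9.99 in both control ASO arrays and at 9.04, 9.07 and 9.02 in Pint ASO (-0.95, SE 0.05, adjusted p = 1.11e-05), with no overlap. Col10a1 fell by 0.75, Col6a1 by 0.68, Col1a2 by 0.67 and Col1a1 by 0.62. Of 12 small leucine-rich proteoglycans, which bind collagen fibrils, 7 were called lower and 0 higher (median -0.41). Beside Prelp these include Ogn (-1.33), Aspn (-1.29), Lum (-1.08) and Fmod (-0.66).

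Of 34 elastic fibre and matricellular genes 21 were called lower and 2 higher, with a median of -0.35. Fbn2, a fibrillin, and Thbs2, a thrombospondin, fell to 49.99% and 49.9% of the control level, and Efemp1, a fibulin, by 0.99 on the log2 scale. The CCN family of matricellular proteins was divided. Ccn2 averaged 13.05 in control ASO and stood at 13.65, 13.65 and 13.66 in Pint ASO (0.60, SE 0.05, adjusted p = 5.55e-05), and Ccn1 rose by 0.29. Ccn5, by contrast, stood at 10.97 and 11.09 against 9.62, 9.52 and 9.81 (-1.38, SE 0.08, adjusted p = 1.39e-05), and Ccn3 fell by 0.89. Ccn1 and Ccn2, targets of YAP, were the 2 members of the list that rose. In these 3 genes with a change over 0.5 the Pint ASO arrays lay apart from both control groups.

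Matrix proteases and their inhibitors fell in 15 of 28 and rose in 3. Mmp19, a metalloprotease, fell by 1.10 (SE 0.08, adjusted p = 3.66e-05), the plasminogen activator gene Plat by 1.02 and the inhibitor gene Timp3 by 0.71. The 3 that rose were the collagenase gene Mmp13 (0.55), the stromelysin gene Mmp10 (0.41) and Plaur (0.32), the urokinase receptor. Of 30 integrins, laminins and basement membrane genes 11 were called lower and 4 higher. Itgb8 (-0.93), Itga1 (-0.71), Nid2 (-0.67), Lama4 (-0.63) and Itga11 (-0.59) fell, and Itga2 (0.34), Itga6 (0.33), Itgb3 (0.30) and Itgb4 (0.26) rose. These 4 were 2 without Pint ASO replicate 1 or 2 or without control ASO replicate 2. Among 26 contractile and serum response factor targets 4 were called higher, led by Ankrd1 (1.04) and Smtn (0.54), and 6 lower, led by Cnn1 (-0.40). The study drew a matrix theme from these samples, so the counts of matrix lists are not independent evidence.

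Most fibroblast markers were lower. Of 17 markers 14 were called lower and 0 higher (3 were not called, among them Fap at 0.18), with a median of -0.49, and for 15 of 17 every Pint ASO array lay below every control array of both arms, against 21.3% of all genes. The mean log2 value over the list was 11.58 and 11.59 in control ASO, 11.09 to 11.16 in Pint ASO, 11.70 to 11.75 in control siRNA and 12.00 to 12.01 in p53 siRNA. All 17 markers were over the floor in these cells labelled as fibroblasts. The list overlaps the matrix lists in its collagens and Lum. In these bulk samples fewer cells of a type and less RNA per cell cannot be told apart.

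Markers of other cell types are given beside these, with 25.4% of all genes called in either direction. Of 8 epithelial markers over the floor 1 was called lower, the cadherin gene Cdh1 (-0.68), and Epcam, Cldn7, Esrp1 and Grhl2 were not over the floor in either ASO group. The mean of that list was 7.74 and 7.90 in control ASO and 7.69 to 7.82 in Pint ASO. Of 11 endothelial markers 2 were called higher, Kdr (0.77) and Esam (0.55), and 2 lower, Erg (-0.24) and Tek (-0.17). Its mean was 6.91 and 7.03 against 7.09 to 7.18, close to the floor of 6. Of 7 macrophage and blood markers only the lysosomal protein gene Cd68 was called (-0.47), and Ptprc, Adgre1 and Lyz2 were not over the floor. Of 10 skeletal muscle markers Actn3 was called lower (-0.29), of 7 adipocyte markers Cebpa was called higher (0.36) and Lpl lower (-0.51), and of 11 neural markers Mbp was called higher (0.18). The calls of Erg, Tek, Cebpa and Mbp were each lost in several fits that left out 1 array. The part of cell mixture in the results was not tested.

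Signals between cells changed in both directions. Of 38 growth factor ligands 11 were called higher and 12 lower. Within the VEGF family, which drives vessel growth, Vegfc stood at 8.67 and 8.20 in control ASO and at 9.28, 9.18 and 9.24 in Pint ASO (0.80, SE 0.12, adjusted p = 0.0016), and Vegfa rose by 0.50. Vegfd stood at 10.37 and 10.39 against 9.28, 9.24 and 9.18 (-1.14, SE 0.06, adjusted p = 1.1e-05). The related ligands thus changed in opposite directions, each with no overlap between groups. The EGF receptor ligand gene Hbegf rose by 0.64, Gdnf by 0.65 and the cytokine gene Lif by 0.62. Ptn fell by 1.10, Hgf, the ligand of MET, by 1.09, Gas6, a ligand of the TAM receptors, by 0.98 and Angpt1 by 0.79.

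Receptors and guidance cues were as divided. Of 35 receptor tyrosine kinases 7 were called higher, with Kdr (0.77) and Epha2 (0.58) first, and 8 lower, with Epha3 (-0.88) and Pdgfrb (-0.49) first. The higher count came down to 2 and the lower count to 5 without control ASO replicate 2, and the lower count to 4 without control ASO replicate 1. It was also 4 higher without Pint ASO replicate 2 or 3, control siRNA replicate 1 or 3, or p53 siRNA replicate 1 or 2. Of 41 ephrins, semaphorins, slits and netrins with their receptors 7 were called higher and 11 lower. Sema7a (0.82) and Efnb2 (0.46) rose, and Efna3 (-0.78), Sema3d (-0.58), Robo1 (-0.51) and Ntn1 (-0.49) fell. The higher count was 4 without control ASO replicate 2.

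Wnt proteins steer growth and cell fate, and secreted inhibitors and enhancers tune them. Of 43 genes of the pathway 15 were called lower and 3 higher. The secreted inhibitors Sfrp1 (-1.20), Sfrp2 (-1.26) and Dkk3 (-1.12) fell, and so did the secreted enhancers Rspo2 (-1.16) and Rspo3 (-0.98). Sfrp1 stood at 11.51 and 11.53 in control ASO and at 10.31, 10.31 and 10.34 in Pint ASO (SE 0.07, adjusted p = 1.1e-05), far outside the spread of either group. Axin1 (0.47), a scaffold of the beta-catenin destruction complex, Fzd6 (0.41) and Wnt11 (0.30) rose, and 1 of these 3 calls, that of Axin1, was left without control ASO replicate 2.

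In TGF-beta and BMP signalling, which promotes matrix production, 15 of 49 genes were called lower and 4 higher, with a median of -0.12. Tgfbi, a matrix protein named for its induction by TGF-beta, fell by 0.79 (SE 0.05, adjusted p = 3.13e-05), Inhbb by 0.75, Bmp4 by 0.64 and Gdf6 by 0.62. The ligand gene Tgfb1 fell by 0.19 (SE 0.05, adjusted p = 0.0381). The inhibitors of the pathway Smad7 (0.64), Skil (0.55) and Nog (0.46) rose, as did the receptor gene Bmpr1b (0.54). The study drew this theme from these samples, so the count is not independent evidence.

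Genes of innate immunity were called lower more often than higher, with many not called. Of 22 complement and acute phase genes 15 were called lower and 1 higher, with a median of -0.43. Control ASO was called below control siRNA for 6 of the 22, against 2.16% of all genes, and above it for 0, against 2.7%. Serping1, the inhibitor of the first complement component, stood at 10.69 and 10.84 in control ASO and at 9.67, 9.73 and 9.66 in Pint ASO (-1.08, SE 0.06, adjusted p = 1.38e-05). C1s1 fell by 1.25 and Saa3, serum amyloid A, by 1.02, and the 1 that rose was Cfp (0.33), properdin, a call lost without any 1 of the Pint ASO arrays or control ASO replicate 2. Of 37 chemokines and cytokines 18 were called lower and 2 higher (median -0.25). Cxcl5, a neutrophil attractant, fell by 1.08, Cxcl14 by 0.69 and Ccl7 by 0.50.

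The 2 chemokines that rose are interferon-induced ligands of the receptor CXCR3. Cxcl10 stood at 11.94 and 11.78 in control ASO and at 12.75, 12.50 and 12.49 in Pint ASO (0.72, SE 0.11, adjusted p = 0.00152). Cxcl11 stood at 8.99 and 8.68 against 10.11, 9.73 and 9.46 (0.93, SE 0.18, adjusted p = 0.00607). For both, control ASO lay above control siRNA, by 0.75 (adjusted p = 0.00639) and 1.15 (adjusted p = 0.00921). With control ASO replicate 2 left out, the difference of Cxcl11 between Pint ASO and control ASO no longer passed. Interferon-stimulated genes in general did not rise, with 0 of 28 called higher and 9 lower. Irf7, the master factor of the response, fell by 0.62, Zbp1, a sensor of nucleic acids, by 0.71 and Oas2 by 0.44. The 9 became 5 without control ASO replicate 1.

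Antigen processing fell in 10 of 15 genes and rose in 0, with a median of -0.41. Psmb8, a subunit of the immunoproteasome, stood at 8.86 and 8.87 in control ASO and at 8.16, 8.21 and 8.14 in Pint ASO (-0.70, SE 0.06, adjusted p = 0.000119). The peptide transporter genes Tap2 and Tap1 fell by 0.53 and 0.45 and Psme2, an activator of the proteasome, by 0.47. Of 19 nucleic acid sensors and their adaptors 4 were called lower, among them Sting1 (-0.54) and Ikbke (-0.45), and 1 higher, the kinase gene Tbk1 (0.25), which no longer passed without Pint ASO replicate 1 or 2, control ASO replicate 2, any 1 control siRNA array or p53 siRNA replicate 2. Of 18 nuclease and protein partners of ASOs 3 were called higher and 1 lower, 16.7% and 5.56%, beside 11.4% and 14.0% of all genes. Those called are Ncl (0.30), nucleolin, Sfpq (0.28), Stab1 (0.28), a receptor that takes up ASOs, and Anxa2 (-0.16). None of these calls was kept in every fit that left out 1 array.

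Metabolic genes fell in several groups. Of 40 lysosomal enzymes and membrane proteins 25 were called lower and 0 higher, with a median of -0.31. Ctso, a cathepsin, fell by 1.01, Lipa, the acid lipase, by 0.75 (SE 0.07, adjusted p = 9.61e-05), Gm2a by 0.68 and Fuca1 by 0.63. That list, too, was drawn up with the study's own tables known, and its count is not independent evidence. Of 27 sterol and fatty acid synthesis genes 15 were called lower and 0 higher (median -0.22). Scd2, a desaturase, fell by 0.60, Fdft1 by 0.56, Dhcr7 by 0.49 and Cyp51 by 0.48.

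Among 35 glutathione transferases and antioxidant enzymes 20 were called lower and 3 higher, with a median of -0.27. Gstt1 stood at 10.60 and 10.70 in control ASO and at 9.60, 9.56 and 9.53 in Pint ASO (-1.08, SE 0.06, adjusted p = 1.11e-05). Gpx3, a secreted peroxidase, fell by 1.04 and Sod3, the extracellular superoxide dismutase, by 0.98. The 3 that rose are targets of the factor NRF2, namely Hmox1, haem oxygenase (0.67), Txnrd1 (0.47) and Srxn1 (0.24). Of 26 cytochromes P450, aldehyde and epoxide enzymes 16 were called lower and 1 higher (median -0.38). Cyp7b1 fell by 1.12, Cyp39a1 by 0.96, Aox1 by 0.79 and Ephx1 by 0.74, whereas Ephx3 stood at 6.75 and 6.83 in control ASO and at 8.37, 8.24 and 8.20 in Pint ASO. These enzymes of oxidation act on sterols, aldehydes and drugs.

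Energy metabolism shifted by less. Of 80 nuclear-encoded respiratory chain subunits 38 were called lower and 0 higher, with a median of -0.21. Ndufa4 (-0.54), Ndufs6 (-0.46) and Uqcrh (-0.47) are examples. This count came down to 13 without control ASO replicate 2, to 23 without Pint ASO replicate 1 and to 25 without control ASO replicate 1. Of 21 glycolysis and pentose phosphate genes 8 were called lower, with Pfkm (-0.49) and Ldhb (-0.44) first, and 1 higher, the hexokinase gene Hk2 (0.28), whose call was lost without Pint ASO replicate 1 or 2 or control ASO replicate 2. Without either control ASO array, 5 were called lower. Of 20 hypoxia-inducible genes 6 were called lower, among them the collagen hydroxylases P4ha2 (-0.68) and P4ha1 (-0.50), and 2 higher, Ndrg1 (0.58) and Vegfa (0.50). The lower count was 2 without control ASO replicate 2, and 3 without control ASO replicate 1 or without Pint ASO replicate 1.

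Cell cycle genes differed by group. Of 29 mitotic genes 0 were called by limma in either direction, and 3 had an unadjusted p under 0.05. Changes ran from -0.20 (Kif2c) to 0.24 (Tpx2). Control ASO itself was called below control siRNA for 8 of the 29 (median of -0.29), against 2.16% of all genes, and above it for 0, against 2.7%. Of 31 DNA replication genes 7 were called higher and 0 lower. These include Ccne2 (0.49), Mcm10 (0.42), Cdt1 (0.35), Cdc6 (0.28) and Pole (0.27). For 5 of the 31 control ASO was called below control siRNA, and for 0 above it. The 7 became 2 without Pint ASO replicate 2, and 3 without Pint ASO replicate 1 or control ASO replicate 2. Of 18 G1 cyclins and CDK inhibitors 9 were called lower and 0 higher. Cdkn2b stood at 10.80 and 10.79 in control ASO and at 10.35, 10.38 and 10.36 in Pint ASO (-0.43, SE 0.04, adjusted p = 0.00022), and Cdkn2a also fell by 0.43. Ccnd3 fell by 0.38, Cdkn1b by 0.37 and Rb1 by 0.34. Those that fell in the G1 list are inhibitors and cyclins alike.

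Of 32 targets of p53 5 were called higher and 5 lower, with a median of -0.01, shares near the 11.4% and 14.0% of all genes. Gadd45a (0.76), Plk3 (0.71), Plk2 (0.58), Sesn2 (0.57) and Aen (0.27) rose. Ephx1 (-0.74), Fas (-0.73), Dram1 (-0.50), Sesn1 (-0.43) and Perp (-0.26) fell, and 3 were called lower without control ASO replicate 1. Fas, a death receptor, stood at 10.04 and 10.17 in control ASO and at 9.38, 9.41 and 9.34 in Pint ASO (SE 0.06, adjusted p = 5.55e-05). Of 24 BCL2 family and caspase genes 3 were called higher (12.5%), Bcl2 (0.58), Birc3 (0.36) and Bok (0.20). The 2 called lower (8.33%) were Casp12 (-1.30) and Casp6 (-0.52). Trp53 and Cdkn1a were not analysed here. Of other genes the study named from these arrays, Gadd45b rose by 0.90, Dgka fell by 0.63 and Adam8 by 0.52, and Nkx2-9 was not called (-0.07).

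Of the Polycomb complexes, the study linked repressive complex 2 to Pint. Genes of that complex were called in 2 of 12 and those of repressive complex 1 in 3 of 19, beside 25.4% of all genes. The study measured Suz12 binding at chosen genes that rose with Pint depletion, and that set was not counted here. Of the 12 genes of Polycomb repressive complex 2, which methylates histone H3, Suz12 rose by 0.32 (SE 0.08, adjusted p = 0.021) and Jarid2 fell by 0.23 (SE 0.05, adjusted p = 0.0142). The call of Suz12 was lost without control ASO replicate 2 or Pint ASO replicate 2, and that of Jarid2 without either control ASO array. Of 19 genes of Polycomb repressive complex 1 3 were called higher, Pcgf6 (0.52), Rybp (0.39) and Yaf2 (0.22), and 0 lower, and 1, Pcgf6, without control ASO replicate 1. Among 37 Hox genes, classic Polycomb targets that set position along the body, 8 were called lower and 0 higher. The 8 are 21.6%, beside 14.0% of all genes called lower. Hoxc6 stood at 8.95 and 8.92 in control ASO and at 8.27, 8.42 and 8.16 in Pint ASO (-0.66, SE 0.07, adjusted p = 0.000287), and Hoxc8 fell by 0.58, Hoxc10 by 0.53 and Hoxc9 by 0.31. Without control ASO replicate 2, and likewise without Pint ASO replicate 3, 5 Hox genes were called lower.

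Of 87 other developmental transcription factors 12 were called higher and 16 lower, near the 11.4% and 14.0% of all genes. Pou3f1 (0.62), Foxf1 (0.42), Runx1 (0.41), Dlx2 (0.40) and Foxf2 (0.40) rose. Twist2 (-0.62), Tfap2b (-0.60), Tbx5 (-0.48), Mkx (-0.47) and Eya4 (-0.41) fell. Without either control ASO array, 7 were called higher. Of 29 nuclear receptors Nr1d1 (0.64) and Nr4a1 (0.37) lead the 5 that rose, and Thra (-0.71), Vdr (-0.66) and Rxra (-0.19) are the 3 that fell. Of 16 circadian clock genes 9 were called higher and 1 lower. The repressors Ciart (0.88), Nr1d1 and Cry2 (0.40) rose and Dbp fell by 0.26 (lost without Pint ASO replicate 1 or control ASO replicate 1), and for Ciart control ASO stood 0.95 above control siRNA. The 9 became 4 without control ASO replicate 2 and 5 without control ASO replicate 1.

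Receptors of smell and keratins, whose probe sets read low, were hardly called. Medians in control ASO were 6.35 and 6.40 for the receptors and 6.64 and 6.75 for the keratins. Among the 3198 genes lowest in control siRNA 3.66% were called higher and 1.41% lower. Of 148 olfactory and vomeronasal receptors over the floor 1 was called, Olfr920 (-0.43), and of 41 keratins 1, Krt80 (0.56). Without control ASO replicate 2, however, 6 of the olfactory and vomeronasal receptors were called higher, and 2 keratins. Of 133 ion channels 9 were called higher and 12 lower, 6.77% and 9.02%, beside 11.4% and 14.0% of all genes. The channels also read low, with medians of 6.84 and 7.09 in control ASO. Among genes at 6.92 to 8.10 in control siRNA 6.82% were called higher and 6.54% lower. The shares of the channels lay near or above those of genes in these low ranges. Kcnj2, an inward rectifier of potassium, fell by 1.05 (SE 0.08, adjusted p = 5e-05) and the calcium channel gene Cacna1g by 0.80, and Trpc1 rose by 0.54. The higher count was 5 without control ASO replicate 1. Of 32 histone genes 7 were called higher and 2 lower. The higher count fell to between 1 and 4 in every fit that left out 1 array except that without control ASO replicate 2, and H1f1 (1.27) was called in each.

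By class of transcript, 1777 of 15097 protein-coding genes were called higher (11.8%) and 2185 lower (14.5%), beside 11.4% and 14.0% of all genes. Of 481 long non-coding RNAs 29 were called higher (6.03%) and 21 lower (4.37%), and of 144 microRNAs 2 (1.39%) and 12 (8.33%). Of 49 small nucleolar RNAs 2 were called higher (4.08%) and 11 lower (22.4%). That class comes from the gene annotation and is not the same set as the 52 listed RNAs above. Genes whose probe sets read low were called less often. Of the 3198 genes lowest in control siRNA 3.66% were called higher and 1.41% lower, and of the 3198 highest there 12.9% and 25.6%. The largest changes that were not called had a wide spread between arrays. Klra6, a receptor gene of natural killer cells, had a change of 0.56 with adjusted p = 0.053, and Phtf1os one of -0.65 with adjusted p = 0.0596.

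For most called genes both control groups lay on the same side of Pint ASO. All 3 Pint ASO arrays were above all 5 control arrays for 1742 of the 1818 genes called higher, and below them for 2166 of the 2241 called lower. Over all genes the shares were 17.8% and 21.3%. These are not a like comparison, because no called gene had overlapping ASO arrays. Lying beyond the control ASO arrays was thus fixed by the selection, and only the control siRNA arrays were free to differ. For 32 genes called higher and 24 called lower the Pint ASO mean did not pass the control siRNA mean, so it did not lie beyond both control groups. Tada2a and Snord118, chosen after their values were seen, are among them. Sirt6, Ptchd4 and Tnrc6c, chosen in the same way, are not. Their Pint ASO means passed the control siRNA mean, while their control ASO means stood below it.

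Sirt6, a deacetylase of chromatin, stood at 10.08 and 10.18 in control ASO and at 11.29, 11.27 and 11.42 in Pint ASO (1.20, SE 0.06, adjusted p = 9.32e-06). The control siRNA mean was 11.20, with control ASO 1.07 below it (adjusted p = 3.65e-05). Pint ASO and control siRNA thus lay together. Tada2a, an adaptor of histone acetyltransferases, stood at 8.60 and 8.49 against 9.66, 9.54 and 9.35 (0.97), and averaged 9.57 in control siRNA. Ptchd4 stood at 9.71 and 9.58 against 10.67, 10.67 and 10.64 (1.02), and averaged 10.57. Tnrc6c, a GW182 protein of microRNA silencing, stood at 9.62 and 9.58 against 10.46, 10.46 and 10.57 (0.90), with 10.03 in control siRNA, so that it lay beyond both controls.

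Some small nucleolar RNAs also differ between the controls. Over the 52 tested, control ASO was called above control siRNA for 3, against 2.7% of all genes, and below it for 1, against 2.16%. Snord118, the U8 RNA of ribosome assembly, stood at 10.37 and 10.29 in control ASO, at 9.43, 9.17 and 9.59 in Pint ASO and at a mean of 6.15 in control siRNA. The call of -0.94 (SE 0.15, adjusted p = 0.00236) therefore lies beside a difference of 4.19 between the controls (adjusted p = 7.25e-06). Snora21 fell by 0.86 with Pint ASO, and control ASO stood 1.47 above control siRNA. Snord35a fell by 0.75, with its controls 0.06 apart.

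**Figure D4:**
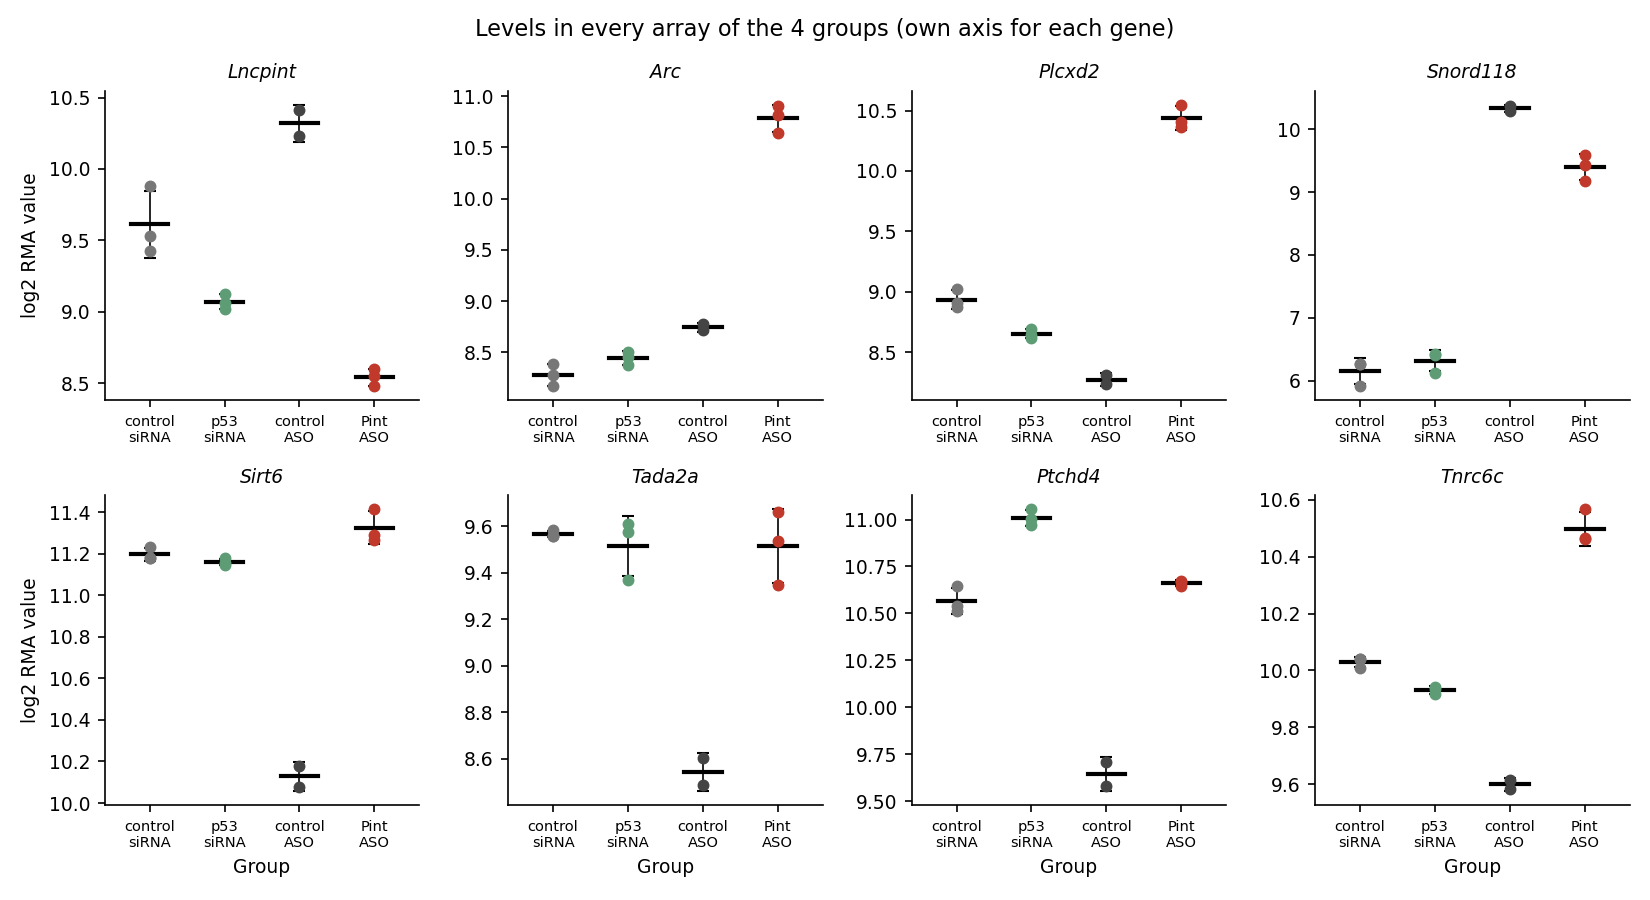
Log2 RMA value (vertical axis, own scale for each gene) of 8 genes in every array (points) of the 4 groups (horizontal axis), where a line marks each mean and bars span 1 SD either way (n = 3, 3, 2 and 3 from left to right). Arc in Pint ASO lies above all other arrays, Sirt6 is low in control ASO alone, and Snord118 is high in both ASO groups.

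The p53 siRNA arm has its own controls, and the difference between the 2 effects was tested. It was called for 1122 of the 1818 genes higher with Pint ASO and for 1423 of the 2241 lower, and for 24.2% of all genes. Genes called with Pint ASO were selected on a change that is part of this difference. A share above that of all genes follows by construction, and nothing is read from it. Steap4 had the widest difference, with -1.79 for Pint ASO and 1.38 for p53 siRNA. Aspn (-1.29 and 1.46), Cxcl15 (-1.64 and 0.74), Serpinb1a (-1.27 and 1.10) and the melanocortin receptor gene Mc5r (-0.82 and 1.53) also went opposite ways. In the other direction Plcxd2 (2.17 and -0.28), Arc (2.04 and 0.17), Arap2 (0.44 and -1.39), Rnf225 (1.80 and 0.00) and Pld4 (1.59 and -0.21) differed most. The effects on Arc, Rnf225 and Pld4 with p53 siRNA were not called.

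Gene groups differ between the arms as well. p53 siRNA raised 10.6% of all genes and lowered 10.7%. Of the 1818 genes called higher with Pint ASO, 219 were also called higher with p53 siRNA and 260 lower. Of the 2241 called lower, 482 were also called lower with p53 siRNA and 528 higher. The study itself reported genes affected similarly by both depletions. All 29 mitotic genes were called higher with p53 siRNA, where Pint ASO gave 0 calls, and the difference was called for all 29. Of the 32 p53 targets 24 were called lower and 1 higher with p53 siRNA, and the difference was called for 28. Of the 28 interferon-stimulated genes 25 were called higher and 0 lower, with the difference called for 24. Of the 27 sterol and fatty acid synthesis genes 23 were called higher and 0 lower, with the difference called for 21.

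Single matrix genes also changed in opposite directions. Col3a1 changed by -0.95 with Pint ASO and 0.67 with p53 siRNA (adjusted p of the difference 2.66e-06), and Mmp10 by 0.41 and -1.03 (4.53e-06). In both genes the effects are of opposite sign and both were called. No difference was called for Col10a1 (-0.75 and -0.77), Gpx3 (-1.04 and -1.22), Ikbke (-0.45 and -0.63) or Cxcl11 (0.93 and 0.93). A difference that was not called does not show equal effects.

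**Figure D5:**
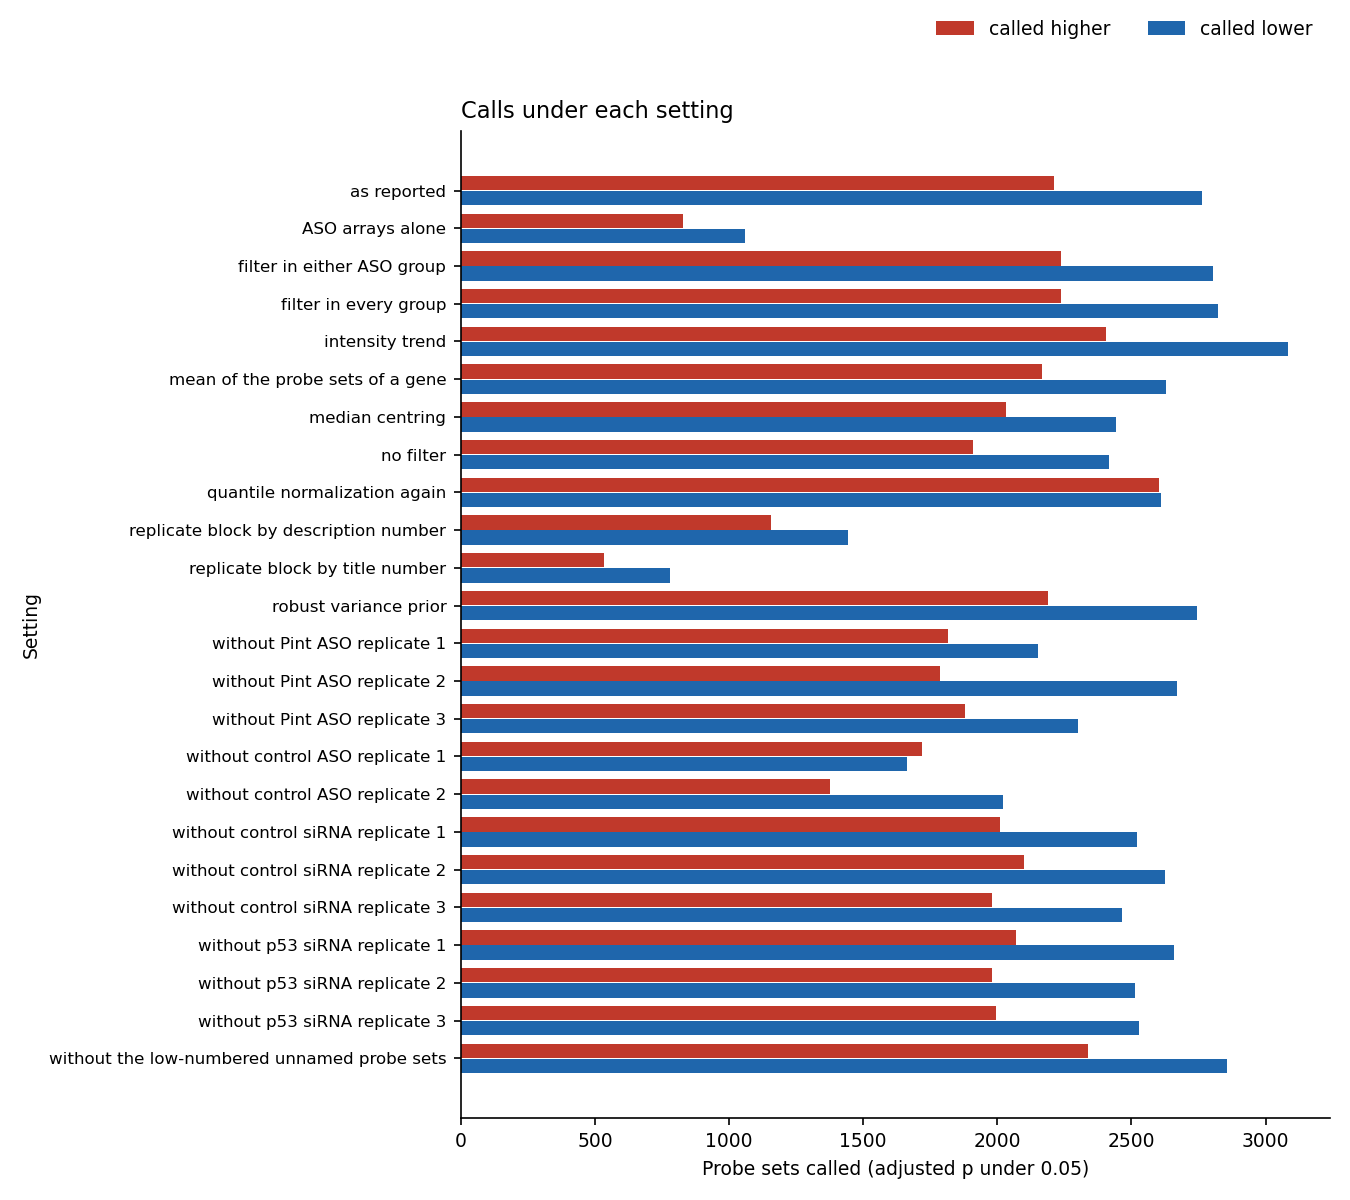
Probe sets called higher (red bars) and lower (blue bars) at an adjusted p under 0.05 (horizontal axis, count from 0) under each setting of the processing (rows), with the reported setting at the top. Counts run from 532 higher and 778 lower with a replicate block by title number to 2604 higher (quantile normalization again) and 3085 lower (intensity trend).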

How the data were processed

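RNA of 11 MEF samples (300 ng each) was hybridised to single-colour Affymetrix mouse gene arrays, 5 of them in the ASO arm. The authors normalised and summarised the arrays by RMA (version not stated in the sources used here) and deposited log2 values, which were used as deposited. The number of arrays limits the precision. Probe sets were named through the platform annotation, in which 21640 of 34760 had 1 symbol, 1321 several and 11799 none, and only the first kind was named. Of the 26038 probe sets over 6 in at least 2 arrays of any group, all were tested in 1 limma fit (version 3.58.1, R 4.3.3) of 4 group means over 11 arrays, with empirical Bayes variances (7 residual and 2.30 prior degrees of freedom) and Benjamini-Hochberg adjustment over all of them. A call is an adjusted p under 0.05. SE is the standard error of the log2 change. A gene took its probe set of highest mean. Samples were grouped by title. Methods speak of triplicates, and 2 control ASO arrays were analysed here.

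Genes named are Lncpint and its neighbours, the 20 called genes furthest in each direction, up to 5 called members per direction of each of 62 lists, the 10 most abundant called genes with a change of at least 0.5, the 5 largest changes per direction not called, the 5 largest differences per direction from p53 siRNA, genes the study named, and genes said to be chosen after their values were seen. The members and lists were chosen with earlier results of these data known, and lists were trimmed by name after the files were opened. The test was tried on simulated data. Alternatives were other filters, normalizations, variance priors, fits of the ASO arrays alone, replicate blocks and leaving out each array. Promoters are from RefSeq (GRCm38.p6).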

Additional observations from a re-analysis of the deposited data

How the results depend on the processing

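Lncpint kept its direction and call in all 23 alternatives, and no called named gene changed direction. The balance of the counts turned without control ASO replicate 1, with 1719 probe sets higher and 1664 lower. With the ASO arrays fitted alone, 827 probe sets were called higher, 1061 lower and 103 at B over 3, and 350 of the list genes were called in place of 681. Leaving out 1 array at a time gave 1377 to 2098 higher and 1664 to 2670 lower. It gave 294 to 978 for control ASO against control siRNA, where all arrays gave 1042. At B over 3, 812 became 339 without control ASO replicate 2 and 434 without control ASO replicate 1. Of the genes called higher and lower, 829 and 1116 were called in all 11 such fits, and 374 and 616 in all 23 alternatives. The cause was not tested.

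Whether replicate numbers pair the samples is not settled here, and the reported fit has no block. The ASO arm has only 2 pairs, and its control arrays are numbered 1 and 2 in titles but 2 and 3 in descriptions. Deviations from group means correlated at -0.0463 and -0.420 by title and at 0.420 and 0.375 by description. With 2 control arrays their deviations are exact opposites, so -0.420 and 0.420 are 1 value with its sign turned. With a replicate block by description number, 1157 were called higher, 1442 lower and 134 at B over 3, with 54 for the controls, 3026 for the difference from p53 siRNA (4793 without the block) and 434 list genes. With a replicate block by title number these were 532, 778, 82, 9, 1912 and 280. Under that block early response factors called higher went from 22 to 12 and MAPK feedback inhibitors from 13 to 5. Cytosolic aminoacyl-tRNA synthetases went from 13 to 3. With the ASO arrays fitted alone, these list counts were 19, 6 and 5. Of 370 called named genes, 208 kept the call under every alternative.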

Other observations

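On the first principal component of the 5 ASO arrays control ASO lay at -30.1 and -18.2 and Pint ASO at 15.5, 7.90 and 24.9. Of 479 genes on the X chromosome 31 were called higher and 95 lower, where all genes gave 11.4% and 14.0%. The 4240 unnamed probe sets with the lowest numbers were called in 7.12%, 115 higher and 187 lower.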
